A study of Mus musculus and Rattus norvegicus with 96 samples.

Results

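The response of frozen mouse liver to phenobarbital was described in 12 libraries, 6 from phenobarbital-treated mice (PB) and 6 from vehicle controls (Con). These 12 were all the libraries of flash-frozen tissue (FR) among the 48 mouse liver libraries of Study 1, and among 96 samples in the series. All mice were male B6C3F1, 10 to 11 weeks old, and drank water with PB at 600 ppm or plain water (0 ppm) over 7 days. Livers were sampled as pieces of the left lateral, caudate and right medial lobes, so each library held every cell type of those pieces. RNA was extracted from the frozen pieces with RNAzol RT, depleted of ribosomal RNA and sequenced as stranded total RNA. The Con mice are called 8A, 8C, 8D, 21C, 82B and 90C, and the PB mice 18B, 18D, 20B, 20D, 75C and 80B.

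PB is a barbiturate that acts in hepatocytes mainly through the constitutive androstane receptor (CAR, encoded by Nr1i3). Activated CAR enters the nucleus, pairs with the retinoid X receptor and binds repeats of a short hexamer near its target genes, and the pregnane X receptor (PXR, encoded by Nr1i2) shares many of these targets. The known targets oxidise, conjugate and export foreign compounds, and the enlarged liver of treated rodents shows a transient burst of hepatocyte division and a growth of the endoplasmic reticulum.

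Total counts on genes were 11737338 to 13029839 in Con and 11823080 to 13702672 in PB, so that 1 count per 1000000 (CPM) stood for 11.7 to 13.7 counts. Counts of at least 1 were found for 14892 to 15200 genes per library, and the 10 most abundant genes took 19.4% to 20.3% of counts in Con and 16.5% to 18.1% in PB. Sample labels carry a tag of L2 in all 6 Con libraries and in PB mice 18B and 18D, and of L3 in the other PB libraries. The labels do not say what the tag is. Results are also given for the fit within L2 (2 PB against 6 Con mice) and for a fit with the tag as a term, which gave fewer calls. Because no Con library is L3, both fits take the PB effect from mice 18B and 18D and give near-equal fold changes. Neither can tell the tag apart from differences between the PB mice.

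Cyp2b10, the P450 gene that classically marks CAR activation, separated the groups as labelled. It measured 0.0767 CPM at the lowest, 0.275 at the median and 0.736 at the highest in Con, and 1520.2, 1869 and 2285 CPM in PB. The lowest PB mouse was far above the highest Con mouse. The fitted log2 fold change was 12.42 ± 0.32 (SE, n = 6 mice per group, adjusted p = 1.35e-12), although its exact size rests on the few counts seen in Con.

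Of 13370 genes tested, 870 (6.51%) rose in PB and 354 (2.65%) fell at an adjusted p under 0.05. A fold change of at least 2 was also met by 230 higher genes (1.72%) and 32 lower genes (0.239%), which are called DEGs below. The 6 PB mice did not overlap with the 6 Con mice for 561 genes (4.2%) on the higher side and 163 genes (1.22%) on the lower side. Log2 fold changes of all genes had a median of 0.00. With the 19 genes above 1% of any library left out of the totals, 692 genes rose and 717 fell, so that the share of rises among changed genes went from 71.1% to 49.1%, with a shift of the median to -0.05. Within L2, 384 rose and 147 fell. With the L tag as a term in the fit the counts were 238 and 67. None of the 1224 changed genes took the opposite sign in any alternative that tested it.

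Promoter windows of 300 bases from RefSeq (GRCm38.p6), each running from 250 bases before the start of a transcript to 50 bases after it, were available for 10280 of the genes tested. They are shown for the 3 largest rises among named drug metabolism genes whose window held a nuclear receptor hexamer. Larger rises, Cyp2b10 among them, had no available window with one and were passed over. Also shown is 1 named risen gene of the glutathione lists described below, picked for the highest number of cores of the antioxidant response element. The presence of motifs in the shown windows was therefore set by the choice. Such factors are known to act through short motifs. Akr1b7 encodes an aldo-keto reductase (chr6:34412112-34412411, plus strand), Cyp3a11 a broad drug-oxidising P450 (chr5:145879805-145880104, minus strand) and Cyp2c29 another P450 (chr19:39286835-39287134, plus strand), and capitals mark nuclear receptor hexamers. Srxn1 encodes sulfiredoxin, which repairs oxidised peroxiredoxins (chr2:152105274-152105573, plus strand), and capitals mark cores of the antioxidant response element.
Akr1b7: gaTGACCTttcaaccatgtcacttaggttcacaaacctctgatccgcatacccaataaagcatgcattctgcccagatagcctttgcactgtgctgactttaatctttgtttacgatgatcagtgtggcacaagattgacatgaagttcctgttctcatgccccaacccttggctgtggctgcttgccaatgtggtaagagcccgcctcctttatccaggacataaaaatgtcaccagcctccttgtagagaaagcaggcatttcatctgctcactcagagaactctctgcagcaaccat
Cyp3a11: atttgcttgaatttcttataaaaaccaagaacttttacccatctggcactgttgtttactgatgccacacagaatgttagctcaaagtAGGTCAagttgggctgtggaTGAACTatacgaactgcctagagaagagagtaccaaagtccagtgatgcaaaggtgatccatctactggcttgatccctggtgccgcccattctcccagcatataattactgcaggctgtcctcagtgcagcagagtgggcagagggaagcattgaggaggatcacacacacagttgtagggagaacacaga
Cyp2c29: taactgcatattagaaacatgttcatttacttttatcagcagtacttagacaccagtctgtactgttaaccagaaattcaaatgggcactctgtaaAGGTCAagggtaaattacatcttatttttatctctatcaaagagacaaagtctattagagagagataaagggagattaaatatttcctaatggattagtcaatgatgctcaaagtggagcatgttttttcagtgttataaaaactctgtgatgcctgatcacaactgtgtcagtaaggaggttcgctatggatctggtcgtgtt
Srxn1: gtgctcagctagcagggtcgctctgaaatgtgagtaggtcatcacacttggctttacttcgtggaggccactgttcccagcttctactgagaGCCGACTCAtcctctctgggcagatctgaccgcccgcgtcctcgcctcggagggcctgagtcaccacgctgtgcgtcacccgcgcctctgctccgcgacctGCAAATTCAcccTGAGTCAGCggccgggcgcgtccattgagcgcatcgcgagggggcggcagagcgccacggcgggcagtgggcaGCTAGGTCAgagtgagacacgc
The hexamer was searched as AGGTCA or AGTTCA and the core as TGANNNNGC, both on either strand, and a hexamer read on the other strand can begin a core. In Cyp3a11 the matches began 162 and 142 bases before the start, in Akr1b7 248 bases and in Cyp2c29 154 bases before it.

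These motifs were common in all windows. A hexamer lay in 21.9% of the 13091 windows of genes tested, in 24.3% of those of genes that rose, in 26.1% of those of genes that fell and in 27.4% of those of higher DEGs. The antioxidant core lay in 42.6% of all windows, 45.1% of windows of risen genes and 40.7% of windows of fallen genes. Hexamers repeated in the same direction with 4 bases between them were in 0 of the 13091 windows. The sterol motif TCACNCCAC was in 1.23% of all windows and 1.95% of those of genes that rose, and the E-box CACGTG in 9.69% and 8.54%. A match describes letters in these windows and not a bound site.

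Among P450 genes, which encode the monooxygenases of drug and steroid metabolism, 24 of 65 tested members rose and 1 fell, beside 6.51% and 2.65% of all genes. Their summed level was 11449 to 17037 CPM in Con and 33895 to 40547 CPM in PB, with no overlap. The largest rises after Cyp2b10 were in Cyp2c genes of chromosome 19. Cyp2c55 (chr19:39007019-39042688) went from 0.256, 0.848 and 1.72 CPM (lowest, median and highest Con mouse) to 391, 510.2 and 665 CPM in PB, with a log2 fold change of 9.03 ± 0.30 (adjusted p = 1.4e-09). Cyp2c29, whose window is shown above, measured 82.3, 291 and 459 CPM in Con and 4744, 5791 and 6260 CPM in PB, a rise of 4.35 ± 0.38 on the log2 scale. Every PB mouse exceeded every Con mouse in both genes, which the naming rule required of Cyp2c29. Cyp2c54 (log2 fold change 4.53), Cyp2c37 (4.04) and the pseudogene Cyp2c53-ps (8.19) rose as well, but these close copies share sequence, and the expectation maximization counts may have split reads between them.

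Cyp3a11, the main mouse counterpart of the human drug-oxidising CYP3A enzymes, measured 30.3, 143 and 272 CPM in Con and 5705, 7530.3 and 11357 CPM in PB (log2 fold change 5.86 ± 0.52, adjusted p = 3e-05). All PB mice lay above all Con mice. Cyp2d12 rose by 3.92 ± 0.26 on the log2 scale from below 1.1 CPM in Con. Cyp1a2, which oxidises caffeine and aromatic amines and is known as a pericentral gene under the aryl hydrocarbon receptor, rose from 237 to 503 CPM in Con to 931 to 1297 CPM in PB (log2 fold change 1.61 ± 0.15, adjusted p = 4.97e-06). The P450 gene that fell was Cyp2d40, from 65.4 to 107.7 CPM in Con to 33.6 to 54.8 CPM in PB (log2 fold change -1.02 ± 0.13, adjusted p = 0.000231). Within L2, 19 members of the list rose and 1 fell.

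**Figure D1:**
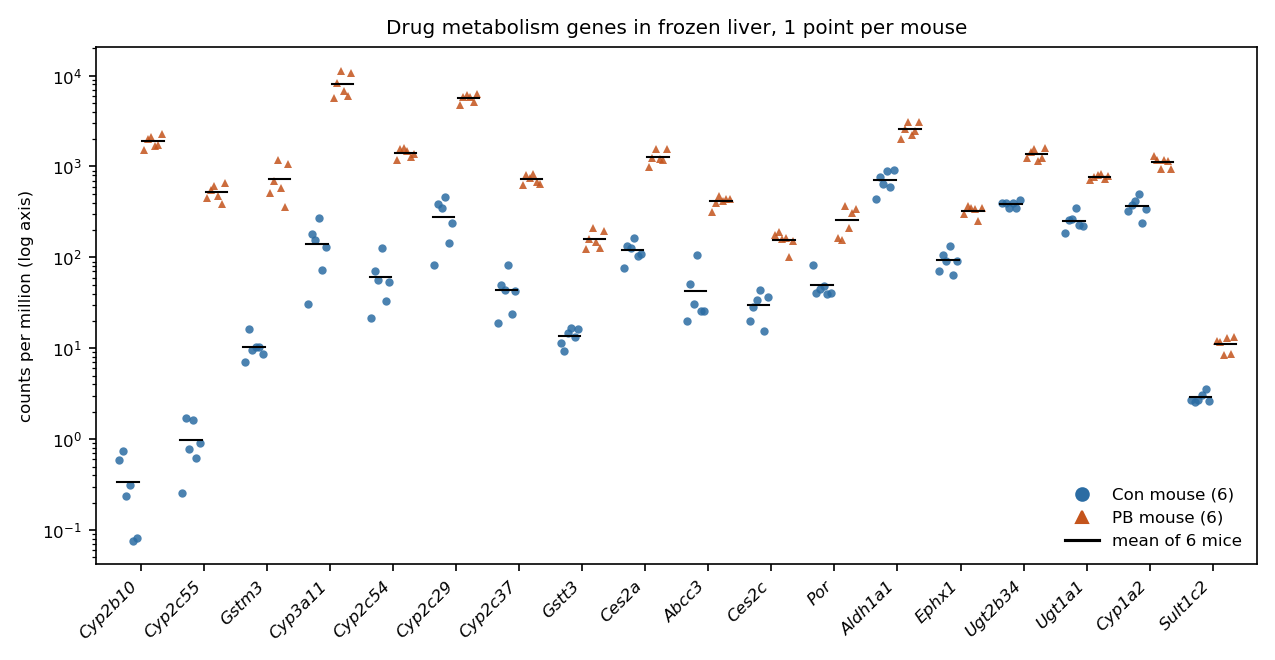
CPM on a log axis for 18 genes of drug metabolism, with 1 circle per Con mouse, 1 triangle per PB mouse and a bar at the mean of 6 mice. No PB mouse overlaps with a Con mouse in any of these genes, from Cyp2b10 (at most 0.736 CPM in Con, at least 1520.2 in PB) to Sult1c2 (at most 3.61 in Con, at least 8.54 in PB). The genes were picked for display, and the naming rule required this separation of Cyp2c29, Cyp2c54 and Cyp2c37. Risen genes with overlap, such as Sult1e1 and Nqo1, are not shown.

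P450 enzymes need electrons and haem. Of 17 genes of electron partners, haem synthesis and haem breakdown, 5 rose and 0 fell. None of the rises named below is a gene of haem synthesis. The list's summed level was 2455 to 3056 CPM in Con and 4211 to 4821 CPM in PB. Por, the reductase that feeds electrons to microsomal P450s, measured 39.1, 43.0 and 81.9 CPM in Con and 155, 259 and 364 CPM in PB (log2 fold change 2.38 ± 0.28, adjusted p = 0.000329). Con mouse 8A held the highest Con value and PB mice 20B, 75C and 80B the highest PB values. Cyb5a (cytochrome b5) rose by 1.35 ± 0.12 and Pgrmc1, a haem-binding membrane partner of P450s, by 0.84 ± 0.11 on the log2 scale. Blvrb, a biliverdin reductase of haem breakdown, rose by 0.46 ± 0.10 but did not pass within L2 (0.35, adjusted p = 0.157).

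Other oxidising and hydrolysing enzymes rose in 7 of 17 tested members and fell in 0. Ephx1, the microsomal epoxide hydrolase that acts after P450s, went from 63.8 to 132 CPM in Con to 252 to 371 CPM in PB (log2 fold change 1.82 ± 0.16, adjusted p = 7.66e-06). Aox1, an aldehyde oxidase, rose by 1.27 ± 0.14 and Fmo5, a flavin monooxygenase, by 0.95 ± 0.11 on the log2 scale. Both kept the call within L2.

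Aldehyde dehydrogenases rose in 2 of 16 tested members, so most of this family did not pass. Aldh1a1, which oxidises retinal to retinoic acid, measured 441, 704.4 and 905 CPM in Con and 2028, 2509.7 and 3090.2 CPM in PB (log2 fold change 1.86 ± 0.17), with no overlap. The neighbouring copy Aldh1a7 rose by 1.005 ± 0.23 (adjusted p = 0.016). Aldo-keto reductases rose in 5 of 14 and fell in 0. Akr1b7 stayed at or below 0.23 CPM in Con and reached 2.26 to 20.9 CPM in PB, with 20.9 and 18.5 CPM in mice 20B and 80B and at most 4.4 CPM in the others. Akr1c19 (log2 fold change 1.33), Akr1d1, the steroid reductase of bile acid synthesis (1.23), and Akr1c14 (0.85) also rose, each with no overlap between the groups.

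Carboxylesterases, which hydrolyse ester drugs and lipids, rose in 7 of 15 tested members, with a median log2 fold change of 0.51. Ces2a measured 77.02, 118 and 165 CPM in Con and 975, 1214 and 1566 CPM in PB, a log2 fold change of 3.43 ± 0.18 (adjusted p = 5.52e-09). Ces2c rose by 2.40 ± 0.25 and Ces1g by 1.64 ± 0.28 on the log2 scale, with no overlap in any of the 3 genes. Without Con mouse 8D, 82B or 90C 4 members rose. Within L2, 4 members rose and Ces1g did not pass (1.70, adjusted p = 0.121).

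Conjugating enzymes moved as a group in 1 direction among those that passed. Glucuronosyltransferases and the genes supplying UDP-glucuronate rose in 11 of 20 tested members (median log2 fold change 0.72), sulfotransferases and their cofactor genes in 5 of 10 (0.68) and glutathione S-transferases in 14 of 22 (0.77), and 0 members of these 3 lists fell. Within L2 the counts were 10, 5 and 10. With the L tag as a term they were 11, 4 and 10, and without Con mouse 82B 3 of the sulfotransferase list rose.

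Ugt2b34 measured 352, 395 and 426 CPM in Con and 1149, 1336 and 1591 CPM in PB (log2 fold change 1.82 ± 0.10, adjusted p = 9.23e-09). Ugt1a1, which conjugates bilirubin, measured 184, 241 and 349 CPM in Con and 704.2, 774 and 836 CPM in PB (1.63 ± 0.13), and both genes were without overlap. Ugt2b35 rose by 1.67 ± 0.13. The Ugt1a members share their last exons, and their separate values, including the rise of 2.06 ± 0.33 in Ugt1a10, are uncertain for that reason.

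The sulfotransferase Sult1c2 went from 2.54 to 3.61 CPM in Con to 8.54 to 13.4 CPM in PB (log2 fold change 1.95 ± 0.15, adjusted p = 2.77e-07). Sult1d1, which takes catecholamines among its substrates, rose by 1.12 ± 0.15 and Papss2, which makes the sulfate donor, by 0.70 ± 0.09. Sult1e1, the estrogen sulfotransferase, reached 22.7 CPM in PB mouse 20B while PB mouse 75C (1.2 CPM) was within the Con range of 0.0782 to 1.4 CPM. Its rise of 3.97 ± 0.91 (adjusted p = 0.0203) was lost without Con mouse 8A or 82B.

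Glutathione S-transferases couple glutathione to reactive products. Gstm3 measured 7.01, 9.93 and 16.4 CPM in Con and 354, 636 and 1186 CPM in PB, a log2 fold change of 6.14 ± 0.37 (adjusted p = 1.3e-06). Gstt3 measured 9.33, 14.2 and 16.5 CPM in Con and 124, 152 and 209.7 CPM in PB (3.55 ± 0.17), again with no overlap. Gsta1 was at or below 0.956 CPM in Con and at 2.76 to 44.9 CPM in PB (6.39 ± 1.16, adjusted p = 0.00742), and Gsta2 rose by 3.16 ± 0.46. PB mice 20B and 80B held the highest Gsta1 values, 35.3 and 44.9 CPM.

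Genes of glutathione synthesis and targets of Nrf2, the factor of the antioxidant response, rose in 8 of 19 tested members with a median log2 fold change of 0.29 and 0 falls. Srxn1 was picked for display above by the 4 antioxidant cores of its window, so that number was set by the choice. Srxn1 measured 28.5, 30.4 and 32.5 CPM in Con and 48.1, 62.5 and 83.5 CPM in PB (log2 fold change 1.06 ± 0.14, adjusted p = 0.000226), with no overlap. The thioredoxin gene Txn1 rose by 0.53 ± 0.07 and the peroxiredoxin gene Prdx1 by 0.47 ± 0.09. Nqo1, a quinone reductase and common Nrf2 marker, was 1.34 to 2.95 CPM in Con and 2.39 to 6.55 CPM in PB (1.19 ± 0.28, adjusted p = 0.0125) and did not pass without PB mice 20B and 80B (0.77, adjusted p = 0.0864). Within L2, 3 members of the list rose.

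Transporters moved less uniformly. Among 13 efflux pumps 3 rose and 2 fell, and among 11 uptake carriers 3 rose and 0 fell. Abcc3, which returns conjugates to the blood, measured 20.2, 28.1 and 105 CPM in Con and 312, 427 and 469 CPM in PB (log2 fold change 3.26 ± 0.41, adjusted p = 0.00076), with Con mouse 21C highest in Con and no overlap. Within L2 it was 3.03 (adjusted p = 0.0543). Abcc2, which exports conjugates into bile, rose by 0.72 ± 0.09 and the drug pump gene Abcb1a by 0.90 ± 0.19. The falls were in Abcb4 and Abcg8, which move phospholipid and sterol into bile (-0.44 and -0.36), and the 2 calls were lost without any of several libraries, Con mice 8A, 21C and 90C among them. Among uptake carriers, Slco1a4 rose by 1.58 ± 0.25 and Slc22a18 by 0.40 ± 0.07. Without Con mouse 21C 5 uptake carriers rose. Within L2, 1 efflux pump and 3 uptake carriers rose and 0 fell.

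**Figure D2:**
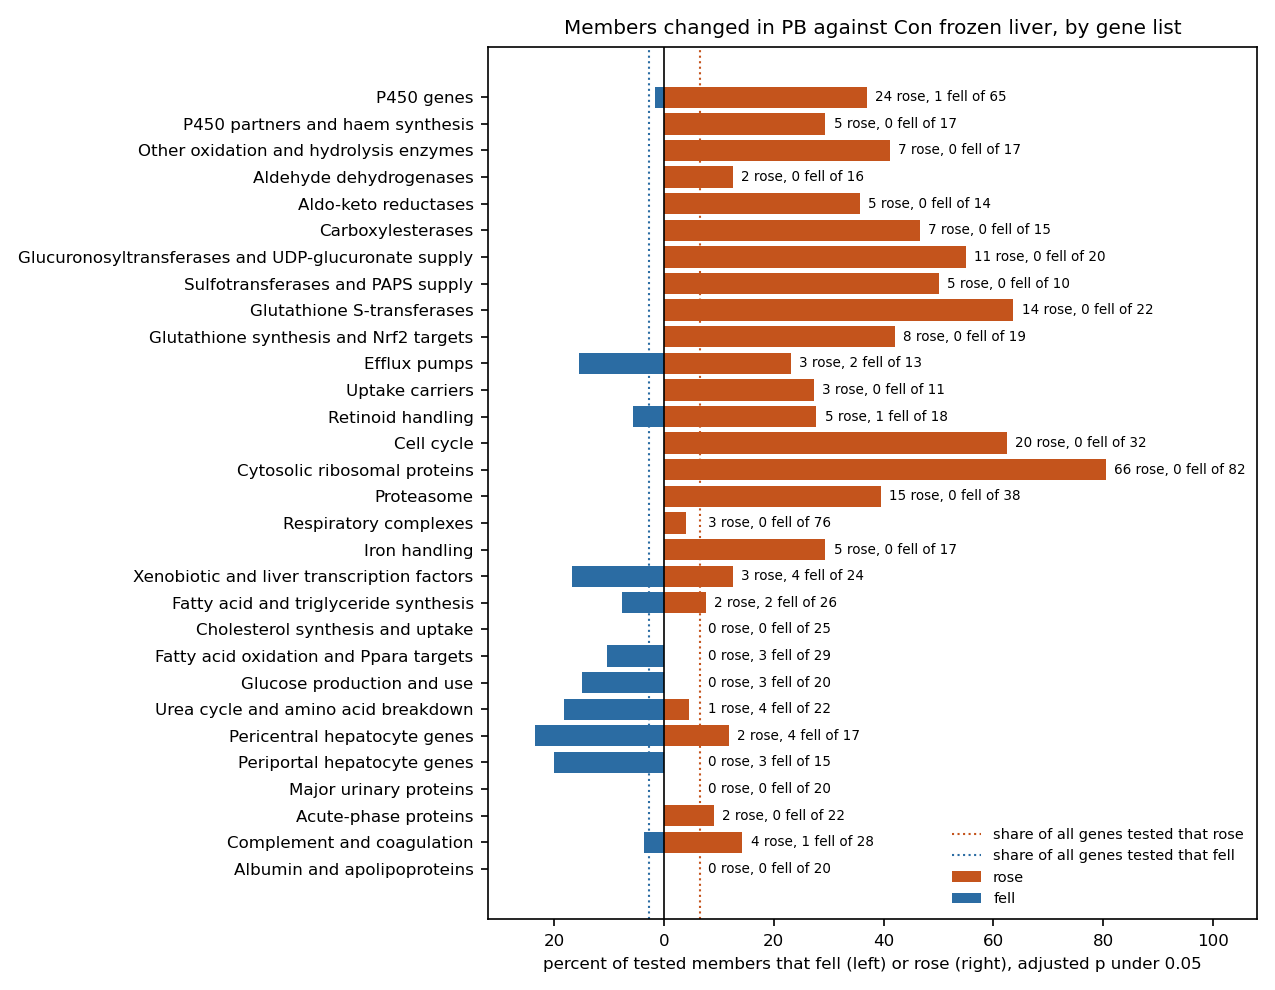
Percent of tested members that rose (right) or fell (left) at an adjusted p under 0.05 in 30 gene lists, with the counts beside each bar and dotted lines at the shares of all genes tested (6.51% rose, 2.65% fell). Bars of phase I and phase II enzymes, cell cycle genes and ribosomal proteins reach far beyond the dotted line on the right, and the lists of fatty acid oxidation, glucose production and periportal genes have bars on the left only.

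Nr1i3 (CAR) measured 15.0, 20.7 and 42.1 CPM in Con and 20.8, 21.6 and 24.9 CPM in PB, a log2 fold change of -0.05 ± 0.21 (adjusted p = 0.92), with Con mouse 21C highest. Nr1i2 (PXR) measured 29.9, 33.9 and 43.4 CPM in Con and 39.7, 51.8 and 56.4 CPM in PB (0.49 ± 0.10, adjusted p = 0.00744). Its groups overlapped, and the call was lost within L2 (0.30, adjusted p = 0.235) and without PB mice 20B and 80B (0.40, adjusted p = 0.0504).

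Of 24 xenobiotic and liver transcription factors 3 rose and 4 fell, with a median log2 fold change of -0.11. Ahr, the aryl hydrocarbon receptor, went from 42.4 to 61.5 CPM in Con to 85.9 to 121 CPM in PB (1.14 ± 0.10, adjusted p = 2.43e-06), with no overlap. Foxo1, a factor of fasting glucose production, fell from 37.4 to 48.1 CPM to 29.3 to 37.3 CPM (-0.35 ± 0.08, adjusted p = 0.00826). Foxa3 fell by 0.74 ± 0.16 on the log2 scale and Ppara, the fatty acid receptor that drives fatty acid oxidation, by 0.85 ± 0.17 (adjusted p = 0.00799). None of the 3 falls passed within L2, where their log2 fold changes were -0.32, -0.69 and -0.87.

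Some of the largest rises lay outside these families. Nebl, which encodes the actin-binding protein nebulette, measured 0.0782, 0.238 and 0.394 CPM in Con and 6.00, 9.21 and 25.5 CPM in PB (log2 fold change 5.91 ± 0.57, adjusted p = 5.79e-05). 9130409I23Rik went from 1.11 to 4.69 CPM to 23.2 to 53.9 CPM (3.94 ± 0.29), and Fndc5, the precursor of irisin, from 0.164 to 1.23 CPM to 5.52 to 16.6 CPM (3.52 ± 0.40). The groups of each of these genes were apart, which the naming rule required of them. The 3 rises passed within L2 too.

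Cell cycle genes rose in 20 of 32 tested members and fell in 0, with a median log2 fold change of 1.39, and 17 of the 20 were DEGs. Cdc20, which activates the anaphase-promoting complex, measured 0.0788, 0.49 and 0.826 CPM in Con and 2.02, 5.07 and 12.8 CPM in PB (log2 fold change 3.73 ± 0.55, adjusted p = 0.00124). Hmmr, a spindle protein gene outside the list that was named for its fold change, measured 0.17, 0.353 and 0.744 CPM in Con and 2.00, 3.40 and 13.6 CPM in PB (3.90 ± 0.69). Ccnb1 and Ccnb2, the mitotic cyclins, rose by 3.35 ± 0.76 and 3.28 ± 0.58, and Birc5 (survivin) by 2.88 ± 0.60. The PB mice exceeded the Con mice in all 5 genes, which the naming rule required of Hmmr.

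The PB mice differed widely among themselves in these genes. In Birc5, mice 20B and 80B were at 9.05 and 8.52 CPM, and mice 18B, 18D, 20D and 75C at 1.86, 1.86, 1.74 and 1.44 CPM. Summed over the list, levels were 164 to 196 CPM in Con, 423 and 420.4 CPM in PB mice 20B and 80B, and 192 to 249 CPM in the other PB mice. Mice 20B and 80B also had the highest summed levels of Kupffer cell markers (867 and 763 CPM, against 370 to 645 CPM elsewhere; 11 of 11 tested members above 0 in log2 fold change, 0 called) and high acute-phase protein levels. Whether these bear on the cell cycle genes was not tested. Without 20B and 80B, 13 members rose and the median was 0.78. Cdc20 (2.98, adjusted p = 0.000262) passed there, and so did Hmmr outside the list (2.73, adjusted p = 0.000148). Within L2 9 members rose (median 0.86) and Ccnb1 did not pass (1.85, adjusted p = 0.108), and with the L tag as a term 2 rose and Hmmr did not pass (adjusted p = 0.115).

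**Figure D3:**
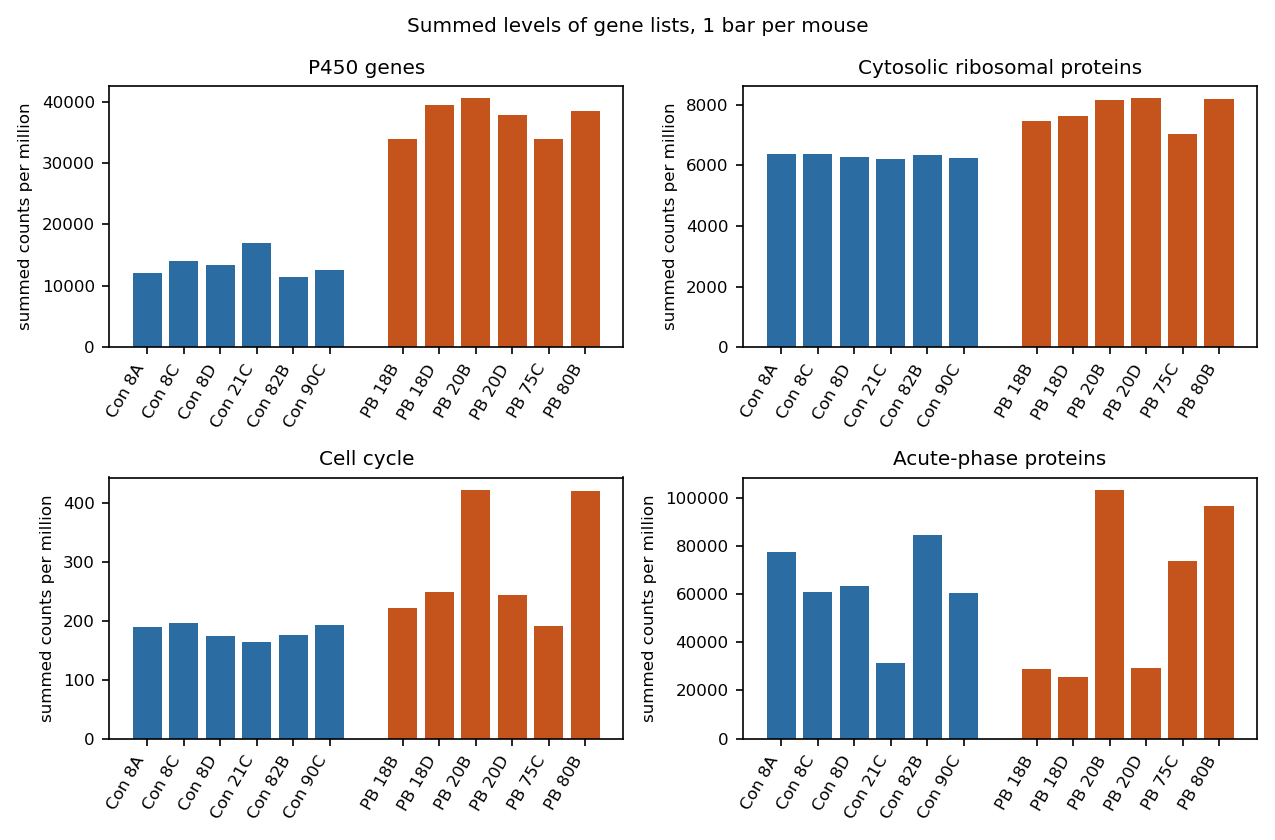
Summed CPM of 4 gene lists, with 1 bar per mouse, Con on the left and PB on the right of each panel and axes from 0. P450 and ribosomal protein sums separate the groups (11449 to 17037 against 33895 to 40547 CPM, and 6194 to 6383 against 7044 to 8205 CPM), while cell cycle sums stand out in PB mice 20B and 80B and acute-phase sums spread over a wide range in both groups.

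Cytosolic ribosomal proteins, the protein part of the translation machinery, rose in 66 of 82 tested members. The fold changes were small, with a median log2 fold change of 0.32, a range of 0.03 to 0.51, all 82 above 0, and 0 DEGs. The summed level was 6194 to 6383 CPM in Con and 7044 to 8205 CPM in PB with no overlap. Rpl17 measured 55.5, 62.6 and 67.4 CPM in Con and 74.1, 88.7 and 98.6 CPM in PB (0.50 ± 0.07, adjusted p = 0.000455). Rpl36a and Rpl39 rose by 0.51 ± 0.10 and 0.49 ± 0.09, with PB mouse 75C alone inside the Con range. Within L2, 16 members rose with a median of 0.27, with the L tag as a term 5 rose with the same median, and with mice of a shared number summed 28 rose with a median of 0.31.

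Proteasome subunits, which form the complex that degrades tagged proteins, rose in 15 of 38 tested members with a median log2 fold change of 0.19 and 0 DEGs. Psmd8 went from 88.5 to 98.2 CPM in Con to 110.0 to 125 CPM in PB (0.35 ± 0.06, adjusted p = 0.00175), with no overlap, and Psma4 rose by 0.36 ± 0.08. The count was 9 without Con mouse 8A, 8 with the genes above 1% left out of the totals and 3 within L2 (median 0.17). Subunits of the respiratory complexes rose in 3 of 76, below the 6.51% of all genes, although 73 of 76 had a log2 fold change above 0 (median 0.16). Their sum was 6936 to 7345 CPM in PB mice 20B, 75C and 80B and 8783 to 9517 CPM in 18B, 18D and 20D, beside 6878 to 8453 CPM in Con. Without 20B, 75C and 80B, 44 members rose, without 75C alone 11, and without most other single libraries, Con mice 8A, 8D, 82B and 90C among them, 1.

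**Figure D4:**
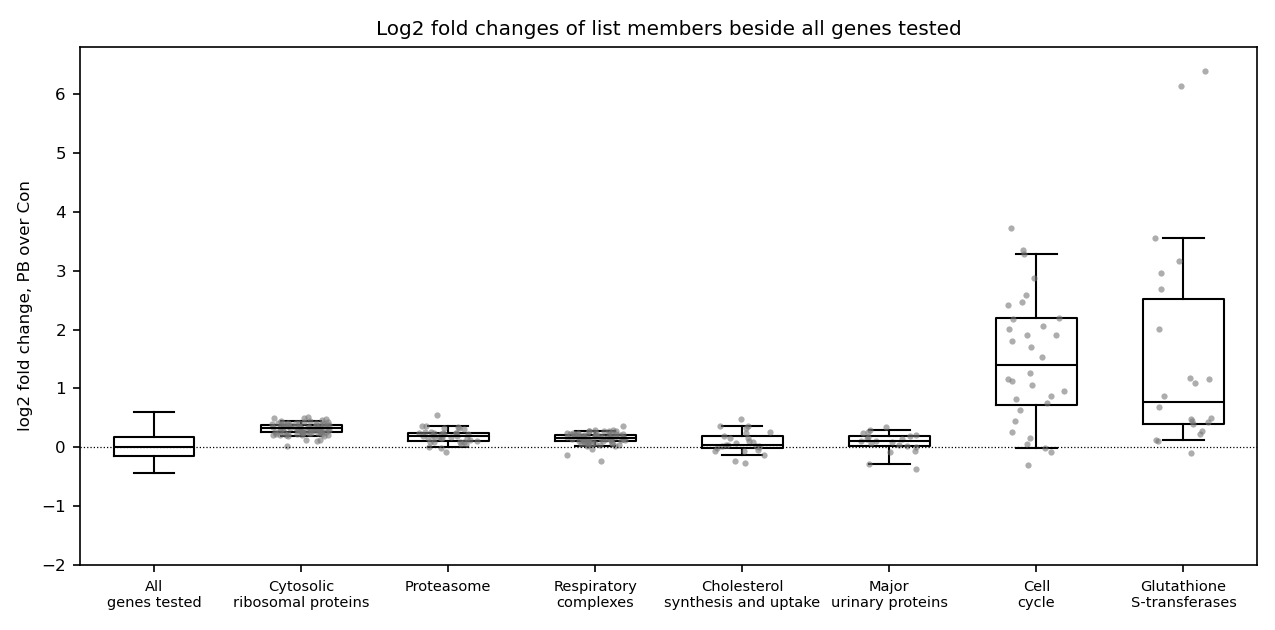
Log2 fold change of PB over Con for all 13370 genes tested and for the members of 7 lists, with 1 dot per member, boxes at the quartiles with the median, and whiskers from the 5th to the 95th percentile. Ribosomal proteins form a narrow band wholly above 0 (0.03 to 0.51), and cell cycle genes and glutathione S-transferases spread far upward. Cholesterol synthesis genes and major urinary proteins have medians of 0.04 and 0.11 in this main fit, beside 0.00 for all genes.

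Of 29 genes of fatty acid oxidation and Ppara targets 0 rose and 3 fell, and of 20 genes of glucose production and use 0 rose and 3 fell, beside 2.65% of all genes. With 1 library left out, 2 or 3 of the oxidation list fell and 1 to 4 of the glucose list, with 1 without Con mouse 8A, 21C or 90C and without PB mouse 18B, 18D, 20B or 80B. In the glucose list 1 gene rose within L2 and 1 without Con mouse 21C. Pck1, the rate-limiting enzyme gene of glucose production, measured 1106, 1402 and 2738 CPM in Con and 426, 564 and 936 CPM in PB (log2 fold change -1.36 ± 0.23, adjusted p = 0.00222). Con mouse 8A was the highest, and the groups did not overlap. Cpt1a, the gate of mitochondrial fatty acid import, measured 333, 384 and 558 CPM in Con and 218, 249.9 and 288 CPM in PB (-0.77 ± 0.13, adjusted p = 0.00155). Within L2 Pck1 (-1.50, adjusted p = 0.0847) and Cpt1a (-0.74, adjusted p = 0.0907) did not pass.

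Among fatty acid oxidation genes Fgf21, a liver hormone of fasting, was 1.57 to 9.38 CPM in Con and 0.573 to 2.52 CPM in PB (-1.77 ± 0.49, adjusted p = 0.0414), but its call was lost without Con mouse 8C, 8D or 21C and without some PB mice. Irs2, an insulin signalling gene (-0.76), and Tat, tyrosine aminotransferase (-0.55), likewise lost their calls without single libraries, Con mice 8A, 21C and 90C among them. In the pentose phosphate and NADPH list 2 of 10 rose and 0 fell. These were Idh1 (0.47 ± 0.09) and Tkt (0.41 ± 0.08), enzymes of NADPH supply and of the pentose phosphate pathway, without overlap between the groups.

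**Figure D5:**
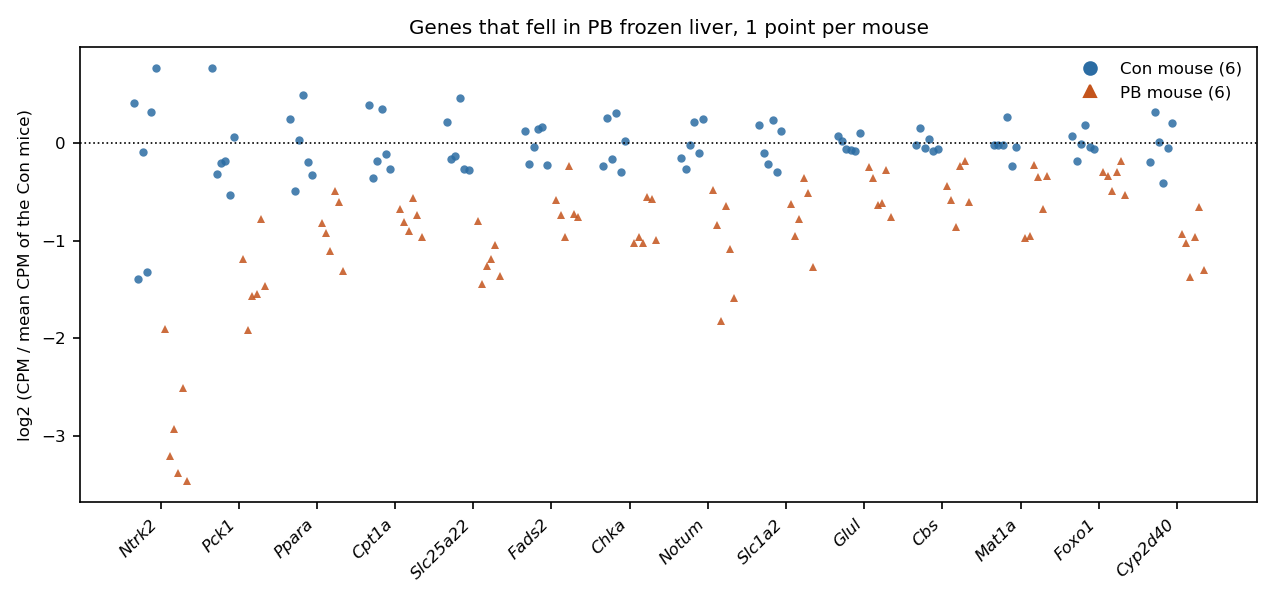
Log2 ratio of CPM to the mean CPM of the Con mice for 14 genes that fell, with 1 circle per Con mouse and 1 triangle per PB mouse. The PB mice lie below 0 in all 14 genes, which were picked for display. Con mice spread most in Ntrk2, where 2 of them were at 6.55 and 6.88 CPM and the others at 16.2 to 29.3 CPM.

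The largest fall by the naming rule was Ntrk2, which encodes the neurotrophin receptor TrkB and is a female-biased gene of mouse liver. It measured 6.55, 18.8 and 29.3 CPM in Con and 1.56, 2.06 and 4.61 CPM in PB (log2 fold change -2.78 ± 0.44, adjusted p = 0.00308), without overlap, and did not pass within L2 (-2.40, adjusted p = 0.202). The mitochondrial carrier genes Slc25a22, for glutamate, and Slc25a34 fell by 1.17 ± 0.14 and 1.26 ± 0.20 on the log2 scale. Srrm4, a splicing regulator known from neurons, fell from 7.77 to 12.1 CPM to 2.88 to 5.33 CPM (-1.21 ± 0.17). The transcripts AW549542, Ctcflos and 3930402G23Rik fell by 2.01 ± 0.30, 1.85 ± 0.27 and 1.64 ± 0.34, and Lgals4, a galectin gene, by 1.75 ± 0.40. Ctcflos is annotated at chr2:173124749-173133205, close to Pck1 at chr2:173153073-173159254.

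Of 26 genes of fatty acid and triglyceride synthesis 2 rose and 2 fell, 7.69% each, beside 6.51% and 2.65% of all genes. Elovl1, an elongase of long fatty acids, rose from 31.5 to 40.7 CPM to 57.4 to 75.3 CPM (0.88 ± 0.08, adjusted p = 2.85e-06), and Fads2, the delta-6 desaturase, fell from 262 to 341 CPM to 156 to 259 CPM (-0.65 ± 0.11, adjusted p = 0.00178). Thrsp, a lipogenic gene responsive to thyroid hormone, rose by 1.36 ± 0.32 (adjusted p = 0.0219), a call lost without Con mouse 8A or 82B. Scd1, the main desaturase, spanned 5902 to 14593 CPM in Con and 980.3 to 7745 CPM in PB (-1.34 ± 0.39, adjusted p = 0.0486), and that call was lost without any of 9 libraries, Con mice 8A and 8C among them. Scd1 itself took over 1% of some libraries.

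Cholesterol synthesis and uptake genes gave 0 rises and 0 falls among 25 tested, and 2 passed an unadjusted p under 0.05 in edgeR, and by DESeq2 1 rose. Sc5d, which acts late in cholesterol synthesis, was 381 to 559 CPM in Con and 444 to 541 CPM in PB (log2 fold change 0.11 ± 0.10). In bile acid synthesis 1 of 14 rose, the Akr1d1 named above. Retinoid handling genes rose in 5 of 18 and fell in 1. Cyp26a1, which degrades retinoic acid, measured 0.426, 1.12 and 1.81 CPM in Con and 7.02, 8.26 and 17.7 CPM in PB (log2 fold change 3.16 ± 0.32, adjusted p = 3.65e-05), and Rarb, a retinoic acid receptor gene, rose by 1.04 ± 0.18. Aldh1a1 and Aldh1a7 were the other named rises of that list, and both Cyp26a1 and Rarb passed within L2. With the L tag as a term 2 of the list rose and Rarb did not pass (0.86, adjusted p = 0.0759).

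Zonation genes are expressed in gradients between the portal tract and the central vein. Of 17 pericentral genes 2 rose and 4 fell (median log2 fold change -0.30), and of 15 periportal genes 0 rose and 3 fell (-0.10). The periportal falls were Pck1, Arg1, the last enzyme of the urea cycle (-0.29 ± 0.09, adjusted p = 0.0473), and Pigr, which carries immunoglobulin A into bile (-0.36 ± 0.10, adjusted p = 0.0358). Arg1 lost its call in 10 of the 12 fits with 1 library left out and Pigr in 9, so that 1 or 2 of the list fell in each such fit (1 without Con mouse 8C, 8D, 82B or 90C or PB mouse 18B, 18D or 20B). Within L2 and with the L tag as a term 0 of the list fell. Cyp1a2 and Lect2 (0.77 ± 0.09) were the pericentral rises. The pericentral falls included Glul, the glutamine synthetase of the last cell layer, from 859.9 to 976 CPM to 537 to 771 CPM (-0.47 ± 0.10, adjusted p = 0.00822), Slc1a2, a glutamate carrier (-0.72 ± 0.14), and Notum, which inactivates Wnt proteins, from 14.2 to 20.2 CPM to 4.82 to 12.2 CPM (-1.001 ± 0.20). The groups of these 3 genes did not overlap. Glul did not pass within L2 (-0.30, adjusted p = 0.147). Of the pericentral list 2 genes fell within L2, and 0 fell with the L tag as a term. Lgr5, a Wnt-pathway receptor gene, fell by 0.96 ± 0.27, but lost the call without most single libraries, Con mice 8A, 8D, 21C and 82B among them.

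Of 22 genes of the urea cycle and amino acid breakdown 1 rose and 4 fell. The rise was Cth, of cysteine synthesis (0.53 ± 0.14, adjusted p = 0.0307), which was lost within L2 and in 7 of the 12 fits with 1 library left out, those without Con mice 8A, 8C, 8D and 82B among them. Falls numbered 2 or 3 with any 1 library left out (2 without Con mouse 8A, 8C, 8D or 90C and without PB mouse 18B or 20B) and 1 with the L tag as a term. Arg1 and Tat, named above, were the falls that single libraries changed. Cbs, of transsulfuration, fell from 427 to 502 CPM to 248 to 396 CPM (-0.46 ± 0.10, adjusted p = 0.0102) and Mat1a, which makes S-adenosylmethionine, from 1499.9 to 2126 CPM to 896 to 1503 CPM (-0.55 ± 0.14, adjusted p = 0.0191). Both passed within L2, but Cbs did not with the L tag as a term (adjusted p = 0.107) and Mat1a did not with mice of a shared number summed (adjusted p = 0.0986). Of 17 clock genes 2 fell (1 without Con mouse 82B or PB mouse 18D, 20B or 20D), and Hlf, an output factor of the clock, went from 34.5 to 43.1 CPM to 23.4 to 33.6 CPM (-0.46 ± 0.09, adjusted p = 0.00325) but not past the threshold within L2 (adjusted p = 0.119).

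Sex-biased genes of the liver are set by the pattern of growth hormone release. Male-biased genes rose in 3 of 14 (0 with mice of a shared number summed, and 1 without Con mouse 8A, 8C, 8D or 82B or PB mouse 18B, 18D or 20D). Their median log2 fold change was -0.03, but 0.50 within L2 and with the L tag as a term, and 0.25 without PB mice 20B and 80B. The list summed to 24603 to 29785 CPM in Con. PB mice 18B and 18D lay above that range at 34537 and 36087 CPM, and 20B, 75C and 80B below it at 19368, 23746 and 19773 CPM. Cyp4a12a, a fatty acid hydroxylase of male liver, went from 298 to 438 CPM to 423 to 533 CPM (0.46 ± 0.10, adjusted p = 0.00886). Major urinary proteins gave 0 calls among 20 in either direction, and 0 at an unadjusted p under 0.05 in edgeR, and 0 by DESeq2. Their median log2 fold change was 0.11, but 0.57 within L2 and with the L tag as a term, where 0 were called. Mup7 spanned 13385 to 17335 CPM in Con and 11442 to 18067 CPM in PB, but the members are near-identical copies whose counts cannot be told apart well. Female-biased genes gave 1 rise (Sult1e1, above) and 1 fall (Ntrk2, above) among 8 tested. In the growth hormone list 0 of 13 rose and 1 fell, and Igf1 was 546 to 928 CPM in Con and 462 to 725 CPM in PB (-0.25 ± 0.14, adjusted p = 0.291). Of 12 genes of thyroid hormone handling and response 1 rose, the Thrsp named above, and 1 fell.

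Both tested noncoding RNAs of the imprinted Meg3 locus, a known site of CAR response in mouse liver, rose. Rian measured 0.391, 0.817 and 1.15 CPM in Con and 2.13, 3.64 and 5.84 CPM in PB (log2 fold change 2.22 ± 0.28, adjusted p = 9.72e-05), without overlap. Meg3 measured 0.844, 1.14 and 1.96 CPM in Con and 1.56, 3.99 and 5.99 CPM in PB (1.59 ± 0.28), with PB mouse 80B lowest and within the Con range. Both calls held within L2 (2.21 and 1.44), but with the L tag as a term Meg3 did not pass (1.44, adjusted p = 0.0659).

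Among 18 genes of growth arrest, p53 and apoptosis 1 rose and 1 fell (5.56% each, beside 6.51% and 2.65% of all genes). Gadd45b, a growth arrest gene that is a known partner of CAR, was 0.235 to 0.46 CPM in Con and 0.404 to 5.98 CPM in PB (log2 fold change 3.38 ± 0.59, adjusted p = 0.00331), where mouse 18B lay within the Con range and mice 20B and 80B were both at 5.98. It was the rise of the list and did not pass within L2 (1.48, adjusted p = 0.135). Among 20 genes of ER and amino acid stress 2 rose (1 without Con mouse 8A or PB mouse 20B or 80B) and 1 fell, with Trib3, a pseudokinase of the amino acid response, from 1.57 to 4.77 CPM to 4.85 to 14.04 CPM (1.65 ± 0.30, adjusted p = 0.00389, within L2 1.23 with adjusted p = 0.0937). Of 23 genes of ER membrane proteins and phospholipid synthesis 2 rose and 2 fell (8.7% each, median log2 fold change 0.01), but 1 rose or 1 fell without most single libraries, Con mouse 8A among them. Chka, choline kinase, fell from 44.8 to 68.3 CPM to 27.1 to 37.6 CPM (-0.84 ± 0.12, adjusted p = 0.000647), and Etnk2, ethanolamine kinase, rose by 0.58 ± 0.08. Immediate early genes rose in 2 of 14 (14.3%, and 0 within L2) and interferon response genes in 1 of 21, with 0 falls in both lists.

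Iron handling genes rose in 5 of 17 and fell in 0. The ferritin genes Ftl1, from 1519 to 2047 CPM to 2416 to 3056 CPM (0.73 ± 0.11, adjusted p = 0.000369), and Fth1 (0.54 ± 0.09) rose, and so did Hfe, which regulates iron sensing (0.71 ± 0.09). Tfrc, the transferrin receptor, was 14.8 to 37.3 CPM in Con and 35.0 to 106 CPM in PB (1.54 ± 0.30, adjusted p = 0.00921), with mouse 18B within the Con range. It did not pass within L2 (0.94, adjusted p = 0.291). Trf, the serum transferrin gene, spanned 19901 to 29931 CPM in Con and 14180.5 to 25819 CPM in PB and did not pass in the main fit (adjusted p = 0.192). In edgeR it fell within L2 (-0.83, adjusted p = 0.0156) and without PB mice 20B, 75C and 80B (-0.71, adjusted p = 0.00856). Within L2, 3 members of the list rose and 3 fell, and with the L tag as a term 3 rose and 1 fell. Without PB mice 20B, 75C and 80B, 4 members of the list rose and 4 fell.

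Secreted liver proteins showed no shared direction. Acute-phase proteins rose in 2 of 22 (1 without any 1 of the Con mice) and fell in 0, with a median log2 fold change of -0.05. Crp was 327 to 474 CPM in Con and 469 to 890.0 CPM in PB (0.65 ± 0.16, adjusted p = 0.0214), and did not pass within L2 (0.27, adjusted p = 0.277) or without PB mice 20B and 80B (0.38, adjusted p = 0.0942). The summed level of the list was 31541 CPM in Con mouse 21C and 60299 to 84551 CPM in the other Con mice, while PB mice 18B, 18D and 20D were at 25594 to 29280.3 CPM and 20B, 75C and 80B at 73697 to 103187 CPM. With those 3 high PB mice left out, 0 of the list rose and 7 fell, with a median of -1.21. Complement and coagulation genes rose in 4 of 28 (14.3%) and fell in 1 (3.57%), beside 6.51% and 2.65% of all genes. Within L2 2 rose and 3 fell, with the L tag as a term 0 rose and 0 fell, and without 20B, 75C and 80B 4 rose and 5 fell. F10, coagulation factor X, went from 390.0 to 433 CPM to 518 to 649 CPM (0.47 ± 0.08, adjusted p = 0.00165 in edgeR). With the L tag as a term F10 did not pass (adjusted p = 0.0898 in edgeR). Albumin and apolipoprotein genes gave 0 calls among 20, with 5 at an unadjusted p under 0.05 in edgeR, and by DESeq2 1 rose and 2 fell. Alb was 40511 to 67527 CPM in Con and 26752 to 55197 CPM in PB (-0.49 ± 0.19, adjusted p = 0.124).

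Markers of the cell types in liver were summed per mouse and compared with an exact two-sided permutation test of 924 arrangements. The hepatocyte list, with Alb, Trf and Apob as its most abundant members, was 111440.0 to 136988 CPM in Con and 89825 to 121183 CPM in PB, a log2 difference of -0.33 (exact permutation p = 0.00649, adjusted p = 0.0649 over 10 lists). Kupffer cell, endothelial, stellate cell, cholangiocyte, lymphocyte, neutrophil, erythrocyte and pancreas lists and RNA quality signs gave adjusted p of 0.624 or more. Pancreas markers summed to at most 0.587 CPM, with 3 of 7 genes at 0 in all libraries. In bulk tissue, fewer cells of a type and less RNA per cell cannot be told apart.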

How the data were processed

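The 12 libraries were reads of ribosome-depleted liver RNA, and the values were estimated counts per gene that the authors made and deposited. Per the submitters' processing notes they used CASAVA 1.8.2, STAR 2.5.3a and Partek, with reads aligned to GRCm38/mm10 and counts assigned by expectation maximization, which can split reads between near-identical genes. The authors also deposited log2 CPM values, which were used for limma alone. Here 92.0% of the estimated counts were whole, and all were rounded. Genes with a geometric mean above 1 count over the 48 Study 1 libraries were kept (13370 of 24543). PB and Con mice were compared with the edgeR quasi-likelihood test, libraries scaled to their total counts and p-values adjusted by the Benjamini-Hochberg method over all genes, with SE as the log2 fold change over the root of F. R 4.3.3, edgeR 4.0.16, limma 3.58.1, DESeq2 1.42.0, Python 3.11.15 and matplotlib 3.10.9 were used, and the fit was tested on simulated data.

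Depth was 11737338 to 13702672 counts, which limits genes below about 1 CPM. No 2 libraries of a group were identical (chi-square per degree of freedom at least 9.2). Labels name mice by number and letter; p-values measure the spread between these mice. Alternatives were another scaling, filter, tool or set of libraries, the L tag as a term, sums over mice that share a number, and each library left out. Leaving out PB mice 20B and 80B, or 20B, 75C and 80B, was chosen after seeing the data. The comparison, members and gene lists were chosen with earlier results of these data known. Named genes were Cyp2b10, up to 15 DEGs per direction with the largest fold, at least 1 CPM and groups apart, up to 4 changed members per list and direction, Nr1i3 and Nr1i2, and up to 2 abundant members of lists with at most 1 change; some genes that meet this rule are not reported here. Gene coordinates were those given with the deposited counts, and promoter windows were those of RefSeq GRCm38.p6. Rat and cell line tables were not used here.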

Additional observations from a re-analysis of the deposited data

Results flagged for a closer look

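Over 298 groups of 6 mice, 15 held a mouse whose gap to its nearest neighbour passed Dixon's limit, a number near the 1 in 20 that chance gives. Con mouse 21C was flagged 4 times, with the highest Con values of Gsta2 (3.70 CPM), Abcb4 (284 CPM) and Lgals4 (5.63 CPM) and the lowest of C9 (781 CPM). Con mouse 8A was flagged 4 times, with the highest Con value of Por (81.9 CPM) and the lowest of Birc5 (0.256 CPM), Rpl38 (22.2 CPM) and Psmb5 (30.1 CPM). Con mouse 82B had the lowest Con values of Slc22a18 (46.7 CPM) and Tat (599.5 CPM). Con mouse 90C had the highest Con values of Sult1e1 (1.4 CPM) and Slc16a10 (180.5 CPM), and Con mouse 8C that of Gsta1 (0.956 CPM). In PB, mouse 75C was lowest in Ces2c (101.7 CPM) and mouse 20B highest in 3930402G23Rik (0.73 CPM).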

How the results depend on the processing

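No paired analysis was possible because PB and Con mice are different animals whose labels pair none of them. The 870 rises became 238 with the L tag as a term, 384 within L2, 473 with mice of a shared number summed and 557 without PB mice 20B and 80B. The 354 falls became 717 with genes above 1% left out of the totals, 651 in DESeq2, 67 with the L tag, 147 within L2, 130 in the sums and 148 without 20B and 80B. With 1 library left out falls ranged from 219 (without PB 18D or 20B; 220 without Con 8A, 224 without PB 80B) to 693 (without PB 75C). The 230 higher DEGs became 91 with the L tag, 127 within L2 and 148 without 20B and 80B. The 32 lower DEGs became 19 in the sums and 54 without 20B, 75C and 80B. Hepatocyte markers passed with TMM scaling (log2 difference -0.334, adjusted p = 0.0433).

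Signs turned for 2 genes, neither called. Mup7 was 0.27 with the L tag and within L2, 0.075 without 20B and 80B and 0.18 without 20B, 75C and 80B. Nr1i3 was 0.0733 in limma and between -0.15 and 0.21 with 1 library left out (0.21 without Con 21C). The causes were not tested. Of 142 named calls, 58 held in every alternative, 109 with each library left out and 88 within L2, where all 142 kept their direction. Depth limits genes under 1 CPM.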

Other observations

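Some gene families outside the lists were described after their values were seen. Their counts stand beside 6.51% of all genes tested that rose and 2.65% that fell. Tubulins, the subunits of microtubules, rose in 8 of 10 tested members with a median log2 fold change of 0.72. Tubb4b went from 90.0 ± 16.5 to 192 ± 26.6 CPM (SD, n = 6 mice each; log2 fold change 1.09 ± 0.12, adjusted p = 4.75e-05 in edgeR), and Tuba1c from 96.5 ± 12.6 to 165 ± 24.9 CPM (0.77 ± 0.11). Krt8 and Krt18, the keratin pair of hepatocytes, rose by 0.61 ± 0.15 and 0.55 ± 0.10 on the log2 scale, and 2 of 5 keratins passed. Kinesins, motors of the spindle and of transport, rose in 7 of 31 and fell in 1, with Kif20a at 2.92 ± 0.55 and Kif4 at 2.69 ± 0.49. The PB mice varied widely in both genes, with 7.34 ± 6.06 CPM for Kif20a and 3.06 ± 2.30 CPM for Kif4 (mean ± SD). Counts of these families in the alternative fits were not made. Replication-type histones rose in 10 of 45, although Hist1h2bq and Hist1h2br carry identical values. Peroxiredoxins rose in 4 of 7. Genes picked by the names of translation factors rose in 7 of 63 and fell in 1, with a median log2 fold change of 0.06 and 0 DEGs. Among the 7 was Eef1akmt1, which encodes a methyltransferase and not a translation factor.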
